A study of Mus musculus with 26 samples.

Results

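The expression of 8 genes that carry the leukemia inhibitory factor (LIF) signal was followed in mouse embryonic stem cells (mESCs): the receptor chains Lifr and Il6st, the kinase Jak1, the transcription factor Stat3, the feedback inhibitor Socs3, and the kinases Pim1, Pim2 and Pim3. They were picked by gene name from the 24015 genes listed for each library, and all 8 passed the filter on low values that left 13477 genes for testing. Pim2 varied most. Its mean was 137.7 RPKM (read counts divided by transcript length and by the depth of the library) in Mtgr1-/- cells and 8.07 RPKM in wt cells in 2i+LIF, 17.1-fold apart, whereas the condition means of the other 7 genes spanned between 1.65-fold (Il6st) and 3.39-fold (Pim3). Lifr and Stat3 were lower in Prdm14-/- cells than in both lines that carried a Prdm14 cDNA.

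LIF binds Lifr, which pairs with Il6st, the gp130 chain shared by the interleukin 6 family of cytokines. Kinases of the JAK family attached to these chains phosphorylate Stat3, which enters the nucleus and activates genes that maintain self-renewal of mESCs. Socs3 is one of the genes Stat3 activates, and its protein blocks the receptor and the JAK kinases. The Pim genes encode serine/threonine kinases that promote survival and growth, need no activating phosphorylation and are controlled largely through their level, and Pim1 and Pim3 have been described as Stat3 targets in mESCs.

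The study asked whether the ETO family protein Mtgr1, encoded by Cbfa2t2, carries out functions of the PR domain protein Prdm14. There were 15 RNA-seq libraries in 7 conditions, all of the Stella:GFP mESC line, which carries a reporter transgene, and every medium contained LIF. Cells of 6 conditions had spent 5 days in serum+LIF without feeders: wt cells (1 library), Prdm14-/- cells (2 libraries, CRISPR clones F10 and G6), Mtgr1-/- cells (3 libraries, CRISPR clones A3, C1 and C3), and lines made from these clones by adding a cDNA tagged with FLAG and HA, which were FH-Prdm14 (2), E294K (2) and FH-Mtgr1 (3). E294K is Prdm14 with 1 amino acid exchanged at its contact with Mtgr1, on the Prdm14-/- background. The wt cells were also sequenced in 2i+LIF (2 libraries), a serum-free medium with inhibitors of MEK and GSK3. Each library of a mutant condition is thus 1 clone. With 1 library of wt cells in serum+LIF, comparisons with it rest on the spread seen in conditions that have several.

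Reads on genes came to between 10668572 and 21218414 per library, and a value of the 8 genes rested on between 173 and 9033 reads. Prdm14 was at 2.77 RPKM in wt serum+LIF cells, at 3.60 and 1.96 RPKM in Prdm14-/- cells, and between 79.8 and 116.4 RPKM in FH-Prdm14 and E294K cells, so its transcript level did not separate the Prdm14-/- from the wt serum+LIF cells and showed overexpression in the lines with a cDNA. Cbfa2t2 was at 40.7 RPKM in wt serum+LIF cells, between 18.0 and 19.9 RPKM in Mtgr1-/- cells and between 25.5 and 28.0 RPKM in FH-Mtgr1 cells. It was at 16.8 and 16.6 RPKM in Prdm14-/- cells, and at 25.7 and 21.4 RPKM in wt 2i+LIF cells. In FH-Prdm14 and E294K libraries it lay between 27.4 and 32.6 RPKM. Its transcript level thus did not separate Mtgr1-/- from Prdm14-/- cells detectably (limma, log2 difference 0.17, SE 0.12, adjusted p = 0.291). All 8 mESC markers read, among them Pou5f1, Sox2 and Nanog, were at 1 RPKM or more in every library. Their summed level was not even, at 1858 to 2073 RPKM in Prdm14-/- and 2699 to 2783 RPKM in FH-Prdm14 libraries, 1379 to 1684 RPKM in Mtgr1-/- and 1734 to 1920 RPKM in FH-Mtgr1 libraries, 2445 to 2640 RPKM in E294K libraries, 2349 RPKM in wt serum+LIF and 2056 to 3114 RPKM in wt 2i+LIF libraries. The Mtgr1-/- library of clone C3 stood apart from those of A3 and C1 (chi-square per degree of freedom of the read counts 46.9 and 42.8, against 6.99 between A3 and C1), and the pair of wt 2i+LIF libraries differed most (69.2). Which library was sequenced on which of the 2 instruments named in the methods is not given in the sources used here.

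On the RPKM scale, which divides by gene length, the means over all conditions put Pim3 first, then Pim1, Socs3, Pim2, Stat3, Il6st, Jak1 and Lifr. Without the division by length, Pim2 moved from the fourth to the seventh place and Lifr from the last to the sixth. No window of 51 bases, the shorter read length used, was shared between protein-coding transcripts of any pair of the 8 genes, the 3 Pim genes included. Exons of Stat3, Jak1 and Pim1 overlap exons of a gene on the opposite strand (Stat5a, Raver2 and Gm16912), and with the unstranded library preparation reads from such stretches cannot be told apart.

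**Figure D1:**
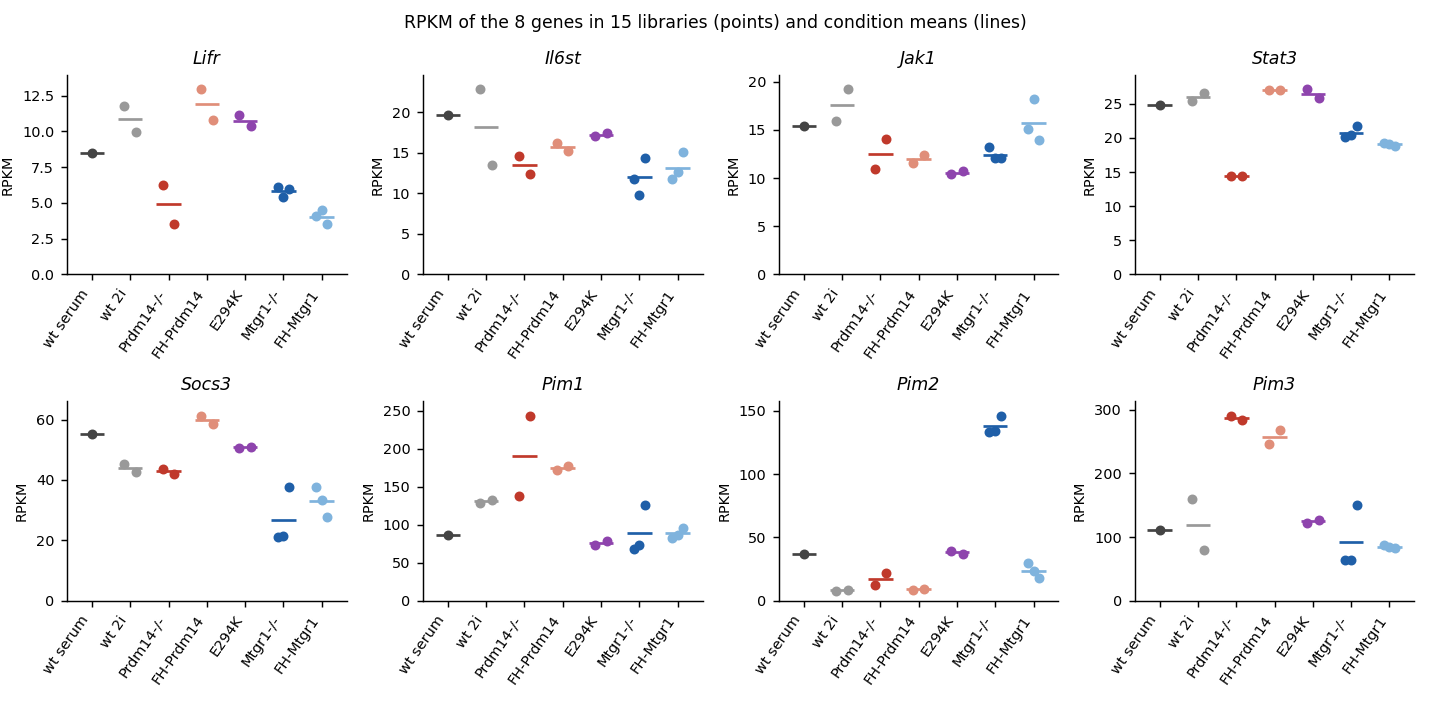
RPKM of the 8 genes (1 panel each, y axis from 0) in the 15 libraries, grouped by condition on the x axis; points are libraries and lines condition means. Pim2 is highest in the 3 Mtgr1-/- libraries (132.9 to 146.1 RPKM), and Stat3 is lowest in the pair of Prdm14-/- libraries (14.4 RPKM in both).

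Lifr (chromosome 15, 7079559 to 7147489, plus strand, NCBIM37, the assembly also called mm9), the chain that binds LIF, was at 8.46 RPKM in wt serum+LIF cells, and at 11.8 and 9.98 RPKM in wt 2i+LIF cells. It was at 6.24 RPKM (F10) and 3.55 RPKM (G6) in Prdm14-/- cells, at 12.9 and 10.8 RPKM in FH-Prdm14 cells, and at 11.1 and 10.4 RPKM in E294K cells. In Mtgr1-/- cells it was at 6.07, 5.41 and 5.97 RPKM (A3, C1 and C3), and in FH-Mtgr1 cells at 4.08, 4.48 and 3.54 RPKM. Both Prdm14-/- libraries lay below all 4 libraries with a Prdm14 cDNA, and the 3 Mtgr1-/- libraries lay above the 3 FH-Mtgr1 libraries. Fold values between conditions, here and below, are ratios of mean RPKM and can differ somewhat from the log2 differences beside them. The SE and adjusted p belong to the log2 differences. Lifr fell 2.43-fold in Prdm14-/- against FH-Prdm14 cells (limma on log2(RPKM + 0.5), difference -1.24, SE 0.22, adjusted p = 0.00149). It was 2.19-fold higher in E294K than in Prdm14-/- cells (log2 difference 1.11, SE 0.22, adjusted p = 0.00349), and E294K did not differ detectably from FH-Prdm14 (-0.13, SE 0.22, adjusted p = 0.698). The 1.44-fold rise in Mtgr1-/- over FH-Mtgr1 cells was small (log2 difference 0.48, SE 0.18, adjusted p = 0.0372). It did not pass in a replicate block by clone, fitted to these conditions alone (adjusted p = 0.0534), nor in 5 of the 6 fits that left out a library of the 2 conditions. It passed in 9 of all 16 alternatives, among them GC adjustment (0.54, adjusted p = 0.00865).

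The order of the conditions for Lifr ran from FH-Prdm14 through wt 2i+LIF and E294K, whose libraries overlapped, to wt serum+LIF, and then to Mtgr1-/-, Prdm14-/- and FH-Mtgr1, of which Prdm14-/- overlapped with both neighbours. Against the single wt serum+LIF library, Lifr was 1.73-fold lower in Prdm14-/- cells (log2 difference -0.78, SE 0.27, adjusted p = 0.0496), a value at the threshold that fell to -0.37 after adjustment for the GC content of transcripts (adjusted p = 0.265) and to -0.41 without clone G6 (adjusted p = 0.262). In FH-Mtgr1 cells it was at less than its wt level in every clone, which did not pass the test (log2 difference -0.99, SE 0.25, adjusted p = 0.0563).

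Il6st (chromosome 13, 113265216 to 113297068, plus strand), the signal-transducing chain, was at 19.7 RPKM in wt serum+LIF cells and at 22.8 and 13.5 RPKM in wt 2i+LIF cells. In the mutant and rescued lines it lay between 9.83 RPKM (Mtgr1-/- C1) and 17.4 RPKM (E294K G6). All 12 of these libraries were below the wt serum+LIF library, but the wt 2i+LIF pair spanned most of that range. No comparison of Il6st passed the test. The one nearest to the threshold was Mtgr1-/- against wt serum+LIF (log2 difference -0.71, SE 0.27, adjusted p = 0.0528), which passed without clone C3 (-0.85, adjusted p = 0.0294) and with voom on the reads (-0.75, adjusted p = 0.0358); over all alternatives its adjusted p ran from 0.0294 to 0.123.

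Jak1 (chromosome 4, 100824972 to 100937887, minus strand), the kinase attached to both chains, differed least between libraries of the 8 genes (1.84-fold between the extremes). Its condition means ran from 10.6 RPKM in E294K to 17.6 RPKM in wt 2i+LIF cells, and it was at 15.4 RPKM in wt serum+LIF cells. Jak1 was at 13.2, 12.0 and 12.0 RPKM in Mtgr1-/- cells, below the 15.1, 18.2 and 13.9 RPKM of the FH-Mtgr1 cells of the same clones. The difference did not pass the test (log2 -0.32, SE 0.14, adjusted p = 0.0648), and it passed after GC adjustment (-0.35, adjusted p = 0.0379) and without FH-Mtgr1 C3 (-0.41, adjusted p = 0.0394).

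Stat3 (chromosome 11, 100746412 to 100800854, minus strand), the transcription factor through which the receptor acts in mESCs, had the smallest SE of the 8 genes in every comparison. It was at 24.9 RPKM in wt serum+LIF cells and at 25.3 and 26.5 RPKM in wt 2i+LIF cells. In Prdm14-/- cells it was at 14.4 RPKM in both clones, against 27.0 RPKM in both FH-Prdm14 libraries, and 27.1 and 25.8 RPKM in E294K cells. The Mtgr1-/- libraries were at 20.1, 20.4 and 21.7 RPKM and the FH-Mtgr1 libraries at 19.3, 19.2 and 18.8 RPKM. Stat3 was therefore near the wt level in 4 libraries with a Prdm14 cDNA, intermediate in the 6 libraries of the Mtgr1 clones, and lowest in the Prdm14-/- pair.

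Stat3 fell 1.88-fold in Prdm14-/- against FH-Prdm14 cells (log2 difference -0.89, SE 0.11, adjusted p = 0.000210) and 1.73-fold against wt serum+LIF cells (-0.77, SE 0.14, adjusted p = 0.00431), a call lost when the fit held these 2 conditions alone (adjusted p = 0.101). E294K cells were 1.84-fold above Prdm14-/- cells (0.86, SE 0.11, adjusted p = 0.000424) and did not differ detectably from FH-Prdm14 cells (-0.03, SE 0.11, adjusted p = 0.883). Mtgr1-/- cells were 1.44-fold above Prdm14-/- cells (0.51, SE 0.10, adjusted p = 0.00288). Against FH-Mtgr1 cells the Mtgr1-/- cells showed no detectable change (0.12, SE 0.09, adjusted p = 0.308), although their 3 libraries lay above the 3 FH-Mtgr1 libraries. In all 14 alternative fits of Prdm14-/- against FH-Prdm14 the fall of Stat3 passed the test, with log2 differences between -0.91 and -0.82.

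Socs3 (chromosome 11, 117827393 to 117831361, minus strand), the inhibitor, was at 55.04 RPKM in wt serum+LIF cells and at 45.2 and 42.8 RPKM in wt 2i+LIF cells. It was at 43.8 and 42.1 RPKM in Prdm14-/- cells, 61.3 and 58.4 RPKM in FH-Prdm14 cells, and 50.5 and 51.04 RPKM in E294K cells. Socs3 was at 21.0 RPKM in A3, 21.4 RPKM in C1 and 37.8 RPKM in C3 among the Mtgr1-/- clones, and in FH-Mtgr1 cells at 37.7, 33.2 and 27.8 RPKM. The pair A3 and C1 was the lowest of all libraries, while C3 lay just above the highest FH-Mtgr1 library.

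Socs3 fell 2.06-fold in Mtgr1-/- against wt serum+LIF cells (log2 difference -1.08, SE 0.27, adjusted p = 0.00855) and 1.61-fold against Prdm14-/- cells (-0.73, SE 0.22, adjusted p = 0.0205). The former did not pass when the fit held these 2 conditions alone (adjusted p = 0.111). The latter did not pass without any 1 of 4 libraries, both Prdm14-/- clones, A3 and C1 (adjusted p between 0.0766 and 0.0975), nor after GC adjustment (-0.39, adjusted p = 0.0728). Against FH-Mtgr1 the difference did not pass the test with all 3 clones (-0.34, SE 0.19, adjusted p = 0.157) and passed without C3 (-0.61, SE 0.13, adjusted p = 0.00220); its adjusted p over the alternatives ran from 0.00220 to 0.452. In Prdm14-/- against FH-Prdm14 cells, where both libraries lay below both, Socs3 did not pass (-0.47, SE 0.24, adjusted p = 0.166). It passed in a replicate block by clone, fitted to these conditions alone (adjusted p = 0.0120), and after GC adjustment (-0.55, adjusted p = 0.0358). In E294K against FH-Prdm14 cells it did not pass (-0.23, adjusted p = 0.511) and passed in such a block (adjusted p = 0.0224). With that block and GC adjustment together the E294K value was 0.16 (adjusted p = 0.0569). The Socs3 RPKM was between 2.93 and 3.04 times the Stat3 RPKM in Prdm14-/- cells, 1.04 and 1.05 times in Mtgr1-/- A3 and C1, 1.74 times in C3, and between 1.48 and 2.27 times in the other 10 libraries.

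The promoter of Socs3 is shown because it is the only promoter among those of the 8 genes with the letters of a STAT site. It spans 250 bases before to 50 after the RefSeq start site (GRCm38.p6, chr11:117969317-117969616, minus strand), with TTCNNNGAA in capitals, whose first base lies 154 bases before the start site.

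Socs3: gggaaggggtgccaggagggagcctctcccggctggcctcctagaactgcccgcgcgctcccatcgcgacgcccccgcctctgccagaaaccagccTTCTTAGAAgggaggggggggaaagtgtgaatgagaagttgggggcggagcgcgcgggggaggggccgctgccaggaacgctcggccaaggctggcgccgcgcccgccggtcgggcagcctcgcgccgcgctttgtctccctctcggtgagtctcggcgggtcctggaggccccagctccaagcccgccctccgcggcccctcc

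The letters TTCNNNGAA, which read the same on both strands, occurred in 8.30% of 32851 RefSeq promoters of this length, and the stricter TTCCNGGAA in 1.15% and in none of the 10 promoters of the 8 genes (all 8 genes matched, and Lifr and Pim1 have a pair each). A match describes letters in a window and not a bound site.

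The 3 Pim kinases did not move together. Pim1 (chromosome 17, 29627757 to 29632390, plus strand) was at 86.0 RPKM in wt serum+LIF cells, 129.0 and 133.2 RPKM in wt 2i+LIF cells, 138.4 and 243.6 RPKM in Prdm14-/- cells, and 171.6 and 177.9 RPKM in FH-Prdm14 cells. It was at 73.8 and 78.8 RPKM in E294K cells, at 68.3, 73.4 and 125.4 RPKM in Mtgr1-/- cells, and at 82.6, 86.8 and 96.2 RPKM in FH-Mtgr1 cells. Both E294K libraries lay below both FH-Prdm14 and both Prdm14-/- libraries.

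Pim3 (chromosome 15, 88692616 to 88696150, plus strand) was at 110.8 RPKM in wt serum+LIF cells, 159.3 and 79.2 RPKM in wt 2i+LIF cells, 290.9 and 284.6 RPKM in Prdm14-/- cells, and 246.8 and 267.9 RPKM in FH-Prdm14 cells. It was at 122.8 and 127.4 RPKM in E294K cells, at 63.9, 63.9 and 150.8 RPKM in Mtgr1-/- cells, and at 88.2, 83.6 and 82.8 RPKM in FH-Mtgr1 cells. Pim1 and Pim3 were both high in Prdm14-/- and FH-Prdm14 cells and both highest in C3 among the Mtgr1-/- clones. Over the 15 libraries their log2 values had a Pearson r of 0.81, as a description of libraries that share conditions and clones.

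Pim1 was 2.29-fold lower in E294K than in FH-Prdm14 cells (log2 difference -1.19, SE 0.28, adjusted p = 0.0109) and 2.50-fold lower than in Prdm14-/- cells (-1.26, SE 0.28, adjusted p = 0.00599). It was 2.15-fold lower in Mtgr1-/- than in Prdm14-/- cells (-1.09, SE 0.25, adjusted p = 0.00593), and 2.22-fold higher in Prdm14-/- than in wt serum+LIF cells (1.09, SE 0.34, adjusted p = 0.0355). Without Prdm14-/- G6, the library with the highest Pim1, the last 2 of these and the difference between E294K and Prdm14-/- no longer passed (adjusted p = 0.0895, 0.202 and 0.0769), and the first did not pass without any 1 of its 4 libraries (adjusted p between 0.0568 and 0.0831). Neither knockout differed detectably from its rescue (Prdm14-/-, 0.07, SE 0.28, adjusted p = 0.881; Mtgr1-/-, -0.04, SE 0.23, adjusted p = 0.884).

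Pim3 was 3.10-fold lower in Mtgr1-/- than in Prdm14-/- cells (log2 difference -1.75, SE 0.33, adjusted p = 0.00199), 2.30-fold lower in E294K than in Prdm14-/- cells (-1.20, SE 0.37, adjusted p = 0.0265) and 2.60-fold higher in Prdm14-/- than in wt serum+LIF cells (1.37, SE 0.45, adjusted p = 0.0422). E294K cells had 2.06-fold less than FH-Prdm14 cells, which did not pass the test (-1.04, SE 0.37, adjusted p = 0.0658). The value passed in a replicate block by clone, fitted to these conditions alone (adjusted p = 0.00155). The differences of E294K and of wt serum+LIF cells from Prdm14-/- cells did not pass without any 1 of their replicated libraries (adjusted p between 0.0811 and 0.132).

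Pim2 (chromosome X, 7455388 to 7460558, plus strand) was at 37.2 RPKM in wt serum+LIF cells and at 7.95 and 8.19 RPKM in wt 2i+LIF cells. It was at 12.3 and 21.5 RPKM in Prdm14-/- cells, 8.37 and 9.53 RPKM in FH-Prdm14 cells, and 39.6 and 37.2 RPKM in E294K cells. In Mtgr1-/- cells it was at 132.9, 134.2 and 146.1 RPKM, and in FH-Mtgr1 cells at 29.7, 23.3 and 18.1 RPKM. The 3 Mtgr1-/- libraries lay above every other library, C3 included, and the wt 2i+LIF and FH-Prdm14 libraries were the 4 lowest.

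In Mtgr1-/- cells Pim2 exceeded its FH-Mtgr1 level 5.81-fold (log2 difference 2.54, SE 0.20, adjusted p = 2.73e-06), and its wt serum+LIF level 3.71-fold (1.87, SE 0.28, adjusted p = 0.000465). It was 4.29-fold higher in E294K than in FH-Prdm14 cells (2.04, SE 0.24, adjusted p = 0.000206) and Prdm14-/- cells had 1.89-fold more than FH-Prdm14 cells (0.83, SE 0.24, adjusted p = 0.0259). The last of these did not pass without Prdm14-/- G6 (0.43, adjusted p = 0.279), nor without either FH-Prdm14 library or when the fit held these 2 conditions alone. E294K cells also had 2.27-fold more Pim2 than Prdm14-/- cells (1.21, SE 0.24, adjusted p = 0.00376), so the line with the mutant cDNA lay above the line with no functional Prdm14.

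Against the single wt serum+LIF library, Pim2 was 4.61-fold lower in wt 2i+LIF cells (log2 difference -2.14, SE 0.30, adjusted p = 0.000590), 4.15-fold lower in FH-Prdm14 cells (-2.00, SE 0.30, adjusted p = 0.00193) and 2.20-fold lower in Prdm14-/- cells (-1.17, SE 0.30, adjusted p = 0.0168). The value in wt 2i+LIF cells did not pass when the fit held these 2 conditions alone (adjusted p = 0.263), and that in Prdm14-/- cells did not pass without clone F10 (-0.78, adjusted p = 0.0561). Pim2 lies on the X chromosome, and the 438 X-linked genes tested had a median log2 difference of -0.33 in 2i+LIF and of -0.25 in FH-Prdm14 cells against wt serum+LIF, where the autosomal medians were -0.09 and 0.03. In Mtgr1-/- against FH-Mtgr1 the X-linked median was 0.04. In E294K and Prdm14-/- against FH-Prdm14, where Pim2 was also higher, it was 0.15 and 0.09, with autosomal medians of -0.07 and -0.09. The share of the X-linked shift in the Pim2 values was not tested.

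Marker lists of other cell types also differed between these cells. The 7 primitive endoderm markers summed to 7.58 to 10.97 RPKM in Mtgr1-/- and 12.7 to 19.1 RPKM in FH-Mtgr1 libraries, to 20.9 RPKM (F10) and 9.29 RPKM (G6) in Prdm14-/- and 4.98 to 6.52 RPKM in FH-Prdm14 libraries. The 7 fibroblast or feeder markers summed to 30.8 to 36.5 RPKM in FH-Mtgr1 libraries and to between 6.06 and 29.7 RPKM in all others, and the 4 mesoderm markers to 1.95 to 6.54 RPKM over all libraries. Of 6 trophoblast markers, 4 or 5 were at 1 RPKM or more in Mtgr1-/- libraries, with a sum between 61.6 and 69.3 RPKM, against 3 and a sum between 9.15 and 11.5 RPKM in FH-Mtgr1 libraries. Hand1 was at 33.7 to 36.1 RPKM and Plac1 at 5.36 to 19.03 RPKM in Mtgr1-/- libraries, whereas the defining Cdx2 was at 0.447 to 1.19 RPKM and Elf5 at 0.269 to 0.502 RPKM. These markers do not add up to the sums, and the rest lies in Eomes and Ascl2, not given singly here. The summed RPKM of the 4 epiblast markers Fgf5, Pou3f1, Otx2 and Dnmt3b was 357.3 to 489.0 in Mtgr1-/- libraries and 293.2 to 314.5 in E294K libraries, against 23.1 to 53.7 in the wt 2i+LIF and FH-Prdm14 libraries, where Pim2 was lowest. In Prdm14-/- libraries, with low Pim2, it was 264.8 and 310.6. Fewer cells of a type and less RNA per cell cannot be told apart in these bulk libraries, and the part of such markers in the Pim2 values was not tested.

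**Figure D2:**
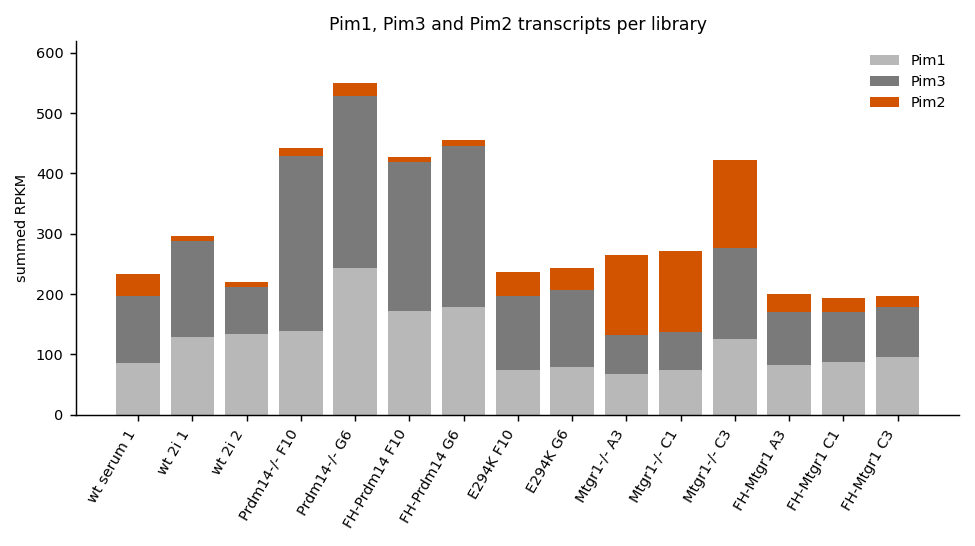
Summed RPKM (y axis) of Pim1, Pim3 and Pim2 in each of the 15 libraries (x axis), stacked. Pim2 makes up 50.1, 49.4 and 34.6% of the sum in the Mtgr1-/- libraries and between 1.96 and 16.8% in the other 12.

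The balance of the 3 kinases is a ratio within a library and does not depend on scaling to depth. Pim2 made up 15.9% of the summed Pim RPKM in wt serum+LIF cells, 2.68 and 3.71% in wt 2i+LIF cells, 2.77 and 3.91% in Prdm14-/- cells, and 1.96 and 2.09% in FH-Prdm14 cells. In E294K cells it made up 16.8 and 15.3%, which brackets the wt serum+LIF value. In Mtgr1-/- cells it made up 50.1% (A3), 49.4% (C1) and 34.6% (C3), and in FH-Mtgr1 cells 14.8, 12.0 and 9.19%. The sum itself was 193.7 to 200.6 RPKM in FH-Mtgr1 cells and 234.0 RPKM in wt serum+LIF cells, and 441.5 and 549.7 RPKM in Prdm14-/- cells, with 426.8 and 455.3 RPKM in FH-Prdm14 cells and 422.3 RPKM in Mtgr1-/- C3 in the same range. In Mtgr1-/- A3 and C1 the sum (265.2 and 271.5 RPKM) thus held about as much Pim2 as Pim1 and Pim3 together, and the sums in Prdm14-/- and FH-Prdm14 cells held little Pim2. After GC adjustment the share of Pim2 was 48.7, 48.6 and 38.6% in Mtgr1-/- cells and 2.06 to 14.8% in the other libraries.

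The promoters of the 3 Pim genes are shown because their transcripts moved apart. Each spans 250 bases before to 50 after a RefSeq start site (GRCm38.p6, plus strand), and capitals in Pim2 mark the octamer ATGCAAAT on either strand, the letters read by POU factors such as Oct4 (Pou5f1). This motif was chosen after the sequence had been read.

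Pim1 (chr17:29490535-29490834): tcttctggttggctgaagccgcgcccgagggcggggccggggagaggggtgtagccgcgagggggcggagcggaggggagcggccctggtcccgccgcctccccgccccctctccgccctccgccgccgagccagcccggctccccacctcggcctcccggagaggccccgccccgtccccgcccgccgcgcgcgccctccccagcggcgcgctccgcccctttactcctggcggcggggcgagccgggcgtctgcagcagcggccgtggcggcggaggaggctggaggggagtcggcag
Pim2 (chrX:7878056-7878355): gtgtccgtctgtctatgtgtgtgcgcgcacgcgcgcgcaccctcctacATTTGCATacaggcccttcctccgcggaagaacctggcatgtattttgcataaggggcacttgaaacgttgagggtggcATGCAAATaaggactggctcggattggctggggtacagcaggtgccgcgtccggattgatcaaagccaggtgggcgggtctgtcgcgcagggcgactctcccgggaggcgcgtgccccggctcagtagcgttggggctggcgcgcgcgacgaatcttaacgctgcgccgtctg
Pim3 (chr15:88861944-88862243): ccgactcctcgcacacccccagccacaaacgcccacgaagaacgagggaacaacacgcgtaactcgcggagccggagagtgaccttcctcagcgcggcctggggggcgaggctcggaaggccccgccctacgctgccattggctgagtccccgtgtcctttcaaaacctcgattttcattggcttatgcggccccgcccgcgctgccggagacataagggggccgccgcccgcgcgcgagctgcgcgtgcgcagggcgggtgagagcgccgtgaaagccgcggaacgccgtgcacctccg

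The Pim2 promoter holds the octamer at 2 places, whose first bases lie 202 and 123 bases before the start site, the former on the opposite strand. Of 32851 promoters, 1.74% hold the octamer at least once and 0.107% at least 2 times, and no promoter of the other 7 genes holds it. As the motif was taken from the Pim2 sequence itself, these shares are a description and not a test. None of the 3 Pim promoters shown holds TTCNNNGAA. The second Pim1 promoter (chr17:29492835-29493134) holds neither motif. GC content was 81.3% in the Pim1, 69.0% in the Pim3 and 62.7% in the Pim2 promoter, against a median of 52.7% over all promoters. Pou5f1 itself was at 308.5 to 942.9 RPKM over the 15 libraries, and its relation to the Pim2 level was not tested.

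**Figure D3:**
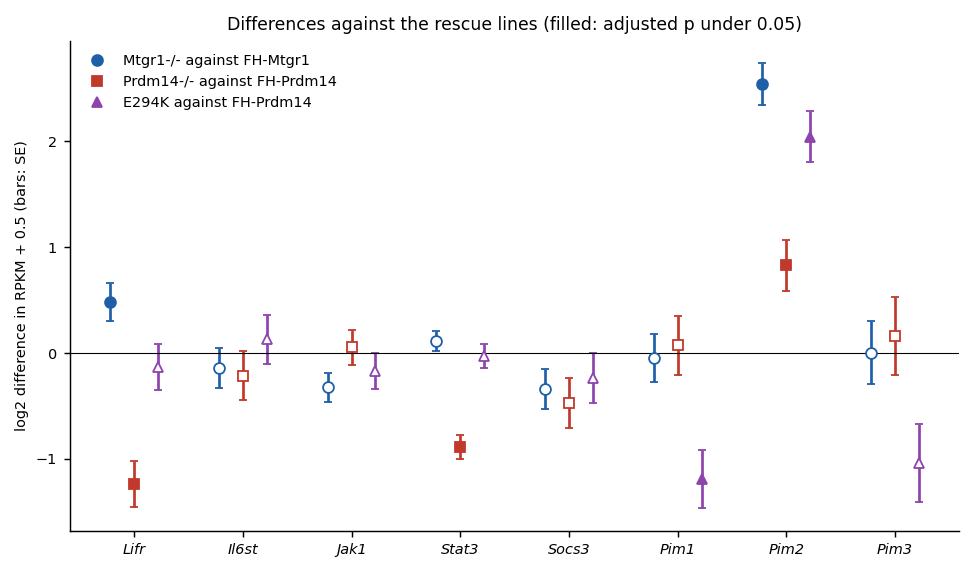
Log2 differences in RPKM + 0.5 (y axis, bars are SE) of the 8 genes (x axis) for Mtgr1-/- against FH-Mtgr1, Prdm14-/- against FH-Prdm14 and E294K against FH-Prdm14; filled symbols have an adjusted p under 0.05. Pim2 is higher in all 3 comparisons (2.54, 0.83 and 2.04), Lifr and Stat3 have filled symbols below 0 in Prdm14-/- (-1.24 and -0.89), and Pim1 is lower in E294K (-1.19).

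Counted by comparison, 2 of the 8 genes rose (Pim2 and Lifr) and 0 fell in Mtgr1-/- against FH-Mtgr1 cells, where 26.2% of all tested genes rose and 26.1% fell. In Prdm14-/- against FH-Prdm14 cells 1 rose (Pim2) and 2 fell (Lifr and Stat3), against 11.4% and 13.8% of all genes. The latter comparison shares its FH-Prdm14 libraries with that of E294K, in which 1 rose (Pim2) and 1 fell (Pim1), against 6.35% and 13.2%. Under a replicate block that pairs clones, 1 of the 8 genes was called in Mtgr1-/- against FH-Mtgr1, 4 in Prdm14-/- against FH-Prdm14 and 4 in E294K against FH-Prdm14. The calls over all genes went from 7051 to 6613 in the first comparison, and from 3390 to 5387 and from 2633 to 7288 in the last 2 comparisons. That block was fitted to the compared conditions only, and fits of these conditions without pairing gave 3458 and 7214 calls in the last 2 comparisons. With the reported settings, 3 of the 8 passed at an unadjusted p under 0.05 in each of these comparisons. Counts over all genes at that threshold are at hand for limma fits of the compared conditions alone. There 3, 4 and 4 of the 8 genes had such a p, as did 7849, 5664 and 8127 of all 13477 genes. The median difference of the 8 genes was -0.02, -0.08 and -0.15, against -0.01, -0.09 and -0.06 over all genes tested.

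In E294K against Prdm14-/- cells 3 rose (Lifr, Stat3 and Pim2) and 2 fell (Pim1 and Pim3), where 15.1% of all genes rose and 17.8% fell. In Mtgr1-/- against Prdm14-/- cells 2 rose (Pim2 and Stat3) and 3 fell (Socs3, Pim1 and Pim3), against 14.4% and 21.1%. Pim2 was 8.16-fold higher in Mtgr1-/- than in Prdm14-/- cells (log2 difference 3.04, SE 0.22, adjusted p = 8.14e-06), the largest difference among the 8 genes in the comparisons made. Both comparisons share the Prdm14-/- libraries.

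Comparisons with wt serum+LIF share the single wt library. When a fit held only the 2 conditions compared, Lifr, Pim1 and Pim2 in Prdm14-/- cells also lost their calls against it (adjusted p = 0.237, 0.126 and 0.108), and Pim1 and Pim3 in FH-Prdm14 cells gained one (log2 differences 1.02 and 1.21, both with adjusted p = 0.0164). In Mtgr1-/- cells 1 gene rose (Pim2) and 1 fell (Socs3), against 14.9% and 22.1% of all genes. In Prdm14-/- cells 2 rose (Pim1 and Pim3) and 3 fell (Lifr, Stat3 and Pim2), against 11.7% and 13.7%. In FH-Prdm14 cells 0 rose and 1 fell (Pim2), against 6.92% and 5.6%, and in wt 2i+LIF cells 0 rose and 1 fell (Pim2), against 9.28% and 13.6%. In FH-Mtgr1 cells limma called 0 of the 8 genes, against 1.03% and 1.71% of all genes, while 4 passed at an unadjusted p under 0.05. Voom called 1 of the 8 (Lifr) and 639 of all genes. In the limma fit of these 2 conditions alone, 5 of the 8 and 3102 of all genes had an unadjusted p under 0.05. In that comparison, and for Mtgr1-/- and for wt 2i+LIF cells against the same library, the median over all genes was at -0.11, -0.11 and -0.10, and median-of-ratios scaling brought it to -0.00484, -0.00907 and -0.00722. Of the genes called in FH-Mtgr1 against wt serum+LIF, 37.7% were higher, and 53.8% with that scaling.

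The effects of the knockouts differed for 3 genes. As the Mtgr1-/- effect minus the Prdm14-/- effect, each against its own rescue, the difference was 1.72 for Lifr (SE 0.28, adjusted p = 0.00100), 1.00 for Stat3 (SE 0.15, adjusted p = 0.000555) and 1.71 for Pim2 (SE 0.31, adjusted p = 0.00192). Over all genes the difference was called positive for 17.1% and called negative for 14.3% of those tested, and none of the 8 genes was called negative (Jak1, Pim3 and Pim1 had negative values of -0.38, -0.16 and -0.12). Lifr was at 0.48 in the Mtgr1 and at -1.24 in the Prdm14 comparison, Stat3 at 0.12 and -0.89, and Pim2 at 2.54 and 0.83. Each of these 3 differences passed the test in all 20 alternative fits. The FH-Prdm14 lines held Prdm14 far above the wt level, as given above, so these effects are measured from rescue lines that are not equivalent to each other.

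**Figure D4:**
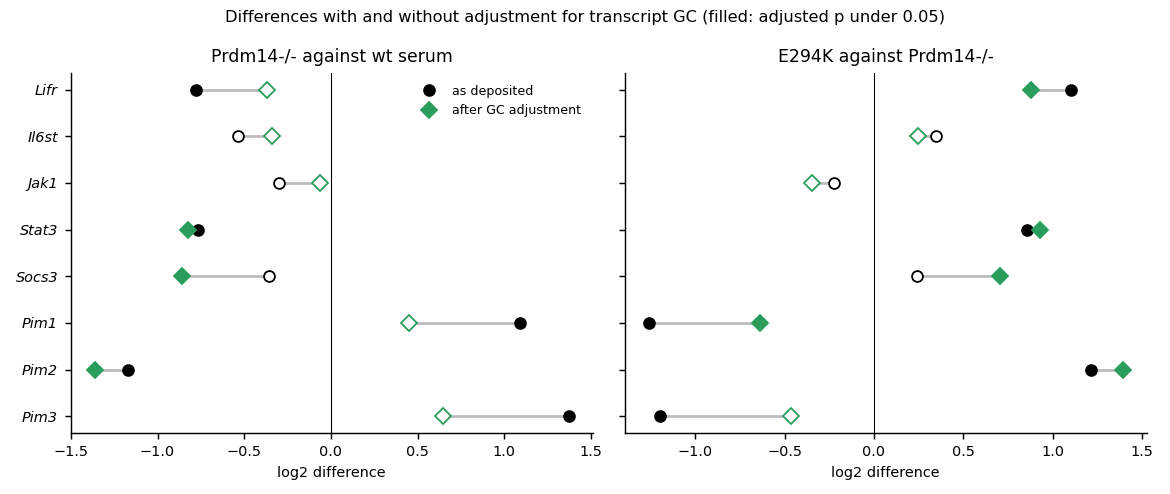
Log2 differences (x axis) of the 8 genes (y axis) for Prdm14-/- against wt serum+LIF and E294K against Prdm14-/-, as deposited (circles) and after adjustment for transcript GC content (diamonds); filled symbols have an adjusted p under 0.05. Pim1, Pim3 and Lifr move towards 0 and Socs3 away from it, whereas Stat3 and Pim2 keep their calls.

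Differences of the genes with GC-rich transcripts, and of Lifr, moved with an adjustment for GC content. Over 12046 genes with a known GC content, the log2 difference had a Spearman correlation with GC content of 0.51 in Prdm14-/- and 0.51 in FH-Prdm14 against wt serum+LIF, of -0.40 and -0.42 in E294K against FH-Prdm14 and Prdm14-/-, and of 0.10 and 0.11 in the comparisons of the knockouts with their rescues. The Pim1, Pim3 and Socs3 transcripts had a GC content of 60.6, 62.0 and 58.7%, that of Pim2 54.7%, Stat3 52.5%, Il6st 48.4%, Jak1 47.6% and Lifr 44.4%. After adjustment, Pim1 and Pim3 no longer passed in Prdm14-/- against wt serum+LIF cells (log2 differences 0.45 and 0.64, adjusted p = 0.233 and 0.118), and Pim3 no longer passed in E294K against Prdm14-/- cells (-0.46, adjusted p = 0.134). Over all genes, the share of calls that were higher went from 32.5 to 47.7% in E294K against FH-Prdm14, from 40.2 to 50.9% in Mtgr1-/- against wt serum+LIF and from 37.7 to 49.7% in FH-Mtgr1 against wt serum+LIF. Pim1 still fell in E294K against FH-Prdm14 and Prdm14-/- cells (-0.69 and -0.64, adjusted p = 0.0351 and 0.0362). Socs3 passed in both, as a fall in Prdm14-/- against wt serum+LIF (-0.86, adjusted p = 0.0187) and a rise in E294K against Prdm14-/- cells (0.71, adjusted p = 0.0108). Over the alternatives the adjusted p of these 7 values ran from 0.000137 to 0.672. The part of GC content in these differences was not tested.

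Around the 8 genes, a list of 55 other genes of the pathway was read, of which 52 passed the filter (Il6, Cntf and Osmr did not). In Mtgr1-/- against FH-Mtgr1 cells 13 rose and 14 fell, and in Prdm14-/- against FH-Prdm14 cells 8 rose and 18 fell, with median log2 differences of 0.09 and -0.13. Over all genes tested, 26.2% rose and 26.1% fell in the former, shares close to those of the list, and 11.4% rose and 13.8% fell in the latter. Of 15 genes listed as targets of the pathway, 2 rose and 8 fell in Prdm14-/- against FH-Prdm14 and 6 rose and 6 fell in Mtgr1-/- against FH-Mtgr1 cells, to be read against the same shares of all genes. Of the 6 STAT factors listed beside Stat3, 0 rose and 5 fell in Prdm14-/- against FH-Prdm14 cells (median log2 difference -0.69). In Mtgr1-/- against FH-Mtgr1 cells 0 rose and 3 fell (median -0.42), so lower STAT transcripts were not limited to Stat3.

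Among these targets, Klf4 (-2.72, SE 0.38, adjusted p = 0.000358), Tbx3 (-2.62, SE 0.43, adjusted p = 0.00105) and Gbx2 (-1.75, SE 0.52, adjusted p = 0.0263), factors of the naive pluripotent state, fell in Prdm14-/- against FH-Prdm14 cells, as did Il6ra (-1.85, SE 0.28, adjusted p = 0.000585), the receptor chain for interleukin 6. In Mtgr1-/- against FH-Mtgr1 cells Myc, a growth-promoting factor, rose (3.02, SE 0.32, adjusted p = 1.89e-05), as did Bcl3 (1.77, SE 0.31, adjusted p = 0.000483) and Cntfr, a receptor for ciliary neurotrophic factor (1.88, SE 0.30, adjusted p = 0.000276), while Tbx3 fell (-2.34, SE 0.36, adjusted p = 0.000197). Klf4 showed no detectable change there (-0.12, SE 0.31, adjusted p = 0.773) and was at 5.57 to 7.43 RPKM in Mtgr1-/- and 7.24 to 7.61 RPKM in FH-Mtgr1 libraries, against 28.0 RPKM in wt serum+LIF cells. In E294K against FH-Prdm14 cells 3 of the 52 rose and 14 fell (all genes 6.35% and 13.2%), among them Jak3 (-1.76, SE 0.28, adjusted p = 0.00126) and Il6ra (-1.68, SE 0.28, adjusted p = 0.00177), with Myc up (1.57, SE 0.40, adjusted p = 0.0163). Between the media, 7 rose and 9 fell in wt cells in 2i+LIF (all genes 9.28% and 13.6%), and Egr1 and Myc, genes also induced by the MEK pathway, fell most (-5.06 and -3.02, SE 0.37 and 0.49, adjusted p = 1.14e-05 and 0.00139).

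**Figure D5:**
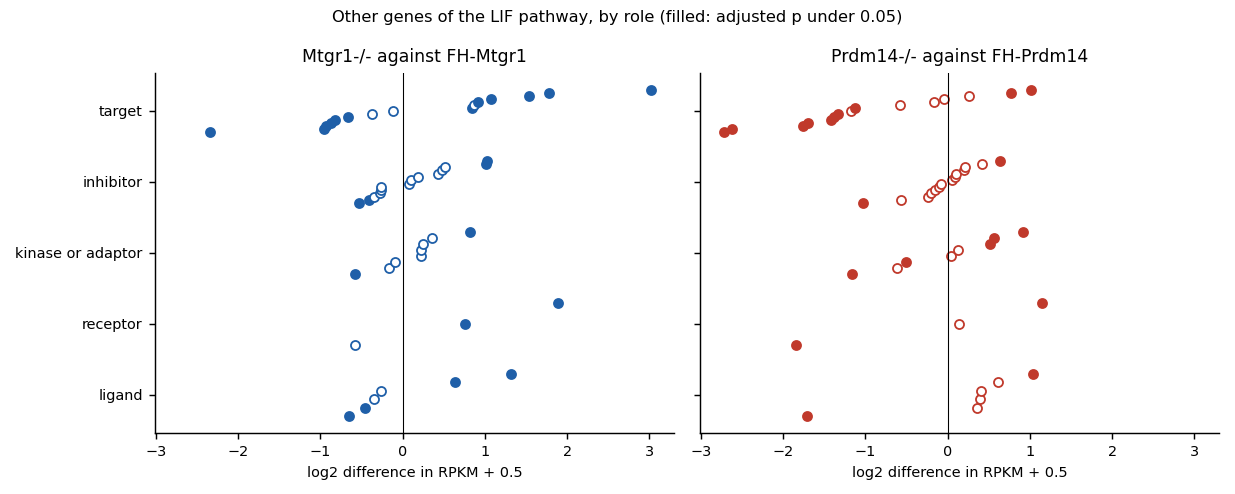
Log2 differences (x axis) of ligands, receptors, kinases or adaptors, inhibitors and targets of the LIF pathway by role (y axis) in Mtgr1-/- against FH-Mtgr1 (left) and Prdm14-/- against FH-Prdm14 cells (right); filled symbols have an adjusted p under 0.05. On the right 8 of 15 targets lie below 0 with a call, on the left 6. The 6 STAT factors of the list are not drawn.

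In the remaining comparisons the counts of the list are given beside the shares of all genes. In E294K against Prdm14-/- 10 were higher and 11 lower (all genes 15.1% and 17.8%), and in Mtgr1-/- against Prdm14-/- 5 and 18 (14.4% and 21.1%). Against wt serum+LIF the list had 8 higher and 18 lower in Mtgr1-/- (14.9% and 22.1%), 9 and 10 in Prdm14-/- (11.7% and 13.7%), 0 and 2 in FH-Mtgr1 (1.03% and 1.71%) and 8 and 3 in FH-Prdm14 cells (6.92% and 5.6%). Lif itself, the ligand, was at 3.17 RPKM in wt serum+LIF cells and between 1.42 and 5.50 RPKM in all libraries, all of which were grown with LIF added. It was lower in E294K (1.56 and 1.42 RPKM) than in Prdm14-/- cells (5.21 and 4.81 RPKM), by limma with a log2 difference of -1.47 (SE 0.20, adjusted p = 0.000450). Jak3 was at 4.92 RPKM in wt serum+LIF cells and at 28.8 and 24.5 RPKM in FH-Prdm14 cells, a rise of 2.32 (SE 0.34, adjusted p = 0.00182) on the log2 scale.

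The genes whose log2 values ran most like those of the 8 over the 15 libraries were Car3 and Ube2v1 for Pim2 (Pearson r 0.98 and 0.96), Myo5c and Crlf3 for Lifr (0.96 and 0.95), Neurl1a and Gm1673 for Pim1 (0.95 and 0.94), and Rbck1 and Top3b for Pim3 (0.94 and 0.94). For Stat3 they were Pole2 and Arhgef3 (0.91 and 0.90), for Socs3 Plcg1 and Lmf1 (0.93 and 0.91), for Jak1 Tk2 and Mrs2 (0.91 and 0.90), and for Il6st Adamts9 and Adipor2 (0.91 and 0.88). They were picked as the highest of 13469 genes, and the libraries share conditions and clones. Ube2v1, for example, was at 160.2 to 175.1 RPKM in Mtgr1-/- libraries and at 63.8 and 66.9 RPKM in wt 2i+LIF cells, a narrower range than that of Pim2. Among the 8 genes themselves, the highest values were 0.83 between Lifr and Stat3 and 0.81 between Pim1 and Pim3, and Pim2 ran against Socs3 (-0.61), Pim1 (-0.59) and Pim3 (-0.50).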

How the data were processed

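Poly(A) RNA of 15 mESC libraries was sequenced. For alignment the authors used Tophat with mm9, for counting HTSeq with RefSeq gene models, and for tests DESeq2 (versions not given in the sources used here). The values the authors deposited are RPKM, with the gene length beside them. The labels also list GRCm38, without saying for what. Every value came out as a whole number of reads within 0.1 (100% in each library), which gave the depth of 10668572 to 21218414 reads on genes. RPKM sets the depth aside, so that genes with few reads carry more error.

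Values were taken as log2(RPKM + 0.5), which understates changes of low genes. Genes with at least 1 RPKM in at least 2 libraries (13477) were fitted with limma 3.58.1 in R 4.3.3 (1 mean per condition, eBayes with trend), with Benjamini-Hochberg adjustment and a threshold of 0.05. The fit was also run on simulated data with the same spread setting for every gene and no clone or GC effect. That run therefore does not cover such effects in these libraries. Libraries of a condition are separate clones, or separate cultures of the wt line as far as the labels say, and the wt serum+LIF condition has 1 library.

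The 8 genes and all lists (pathway, markers) were chosen with earlier results of these data known. Named are the 8 genes, in each comparison up to 4 pathway genes past the threshold with the largest difference, the 2 genes most correlated with each of the 8, and Prdm14 and Cbfa2t2; Klf4 in Mtgr1-/- cells was named after its values were seen. One gene of the pathway list is not reported here by itself. A clone number marks the same cell line before and after rescue, so clones pair the libraries. The correlation of their deviations from the condition means was 0.06, -0.18 and 0.03 in the Mtgr1 clones, 0.30 between Prdm14-/- and FH-Prdm14, 0.08 between FH-Prdm14 and E294K, and 0.04 between Prdm14-/- and E294K.

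Alternatives were pseudocounts of 0.1 and 1, no filter, a filter at 5 RPKM, only the compared conditions, median-of-ratios scaling, voom on the reads computed back, GC adjustment (lowess, span 0.3, 12046 genes with a GC content from NCBIM37), a replicate block by clone and leaving out single libraries. The block was fitted to the libraries of the compared conditions only. The block together with GC adjustment was added after seeing the data. Promoters came from RefSeq (GRCm38.p6). ChIP-seq samples were not analysed here.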

Additional observations from a re-analysis of the deposited data

Results flagged for a closer look

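For 3 of the 8 genes the effect of the knockout, measured against the rescue lines of the same clones, differed between the Mtgr1-/- and the Prdm14-/- cells by a test of the difference itself (limma, Benjamini-Hochberg adjustment over 13477 genes). Given as the Mtgr1-/- effect minus the Prdm14-/- effect on the log2 scale, it was 1.72 for Lifr (SE 0.28, adjusted p = 0.00100), where the 3 Mtgr1-/- libraries lay above and both Prdm14-/- libraries below their rescue. The knockouts themselves did not differ detectably in Lifr (Mtgr1-/- against Prdm14-/-, log2 difference 0.27, adjusted p = 0.308, with overlapping libraries), while the mean of the rescue lines was 4.03 RPKM in FH-Mtgr1 and 11.9 RPKM in FH-Prdm14 (wt serum+LIF, 8.46 RPKM). The difference of the effects was 1.00 for Stat3 (SE 0.15, adjusted p = 0.000555), with the same arrangement of the libraries, and 1.71 for Pim2 (SE 0.31, adjusted p = 0.00192). Pim2 was higher in every knockout library than in the rescue libraries of the same knockout.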

How the results depend on the processing

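Of the 29 called values of the 8 genes, 15 kept their direction and call under every alternative run, and none of the 389 alternative values turned the direction, while 49 lost the call. Of 59 uncalled values, 27 of 755 alternative values passed the threshold and 49, in 20 of the values, turned the sign, all at sizes up to 0.48 and adjusted p of 0.0569 or more. The cause of these moves was not tested. Comparisons with the single wt serum+LIF library and groups of 2 limit the precision.

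Counts of the 8 genes called moved as follows. With no filter they were 1 (2 with the reported settings) in Mtgr1-/- against FH-Mtgr1 and 2 (reported 5) in Prdm14-/- against wt serum+LIF, and a filter at 5 RPKM gave 1 (reported 0) in FH-Mtgr1 against wt serum+LIF, as did voom. With only the compared conditions they were 4 (reported 2) in E294K against FH-Prdm14, 1 (reported 2) in Mtgr1-/- and 1 (reported 5) in Prdm14-/- against wt serum+LIF, 3 (reported 1) in FH-Prdm14, 0 (reported 1) in wt 2i against wt serum+LIF, and 3 (reported 5) in Mtgr1-/- against Prdm14-/-. GC adjustment gave 4 (reported 2) in Mtgr1-/- against FH-Mtgr1, 3 (reported 5) in Prdm14-/- and 2 (reported 1) in wt 2i against wt serum+LIF. The replicate block by clone gave 1 in Mtgr1-/- against FH-Mtgr1 and 4 in E294K against FH-Prdm14, and with GC adjustment 4 and 4.

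Counts over all genes moved with only the compared conditions from 2633 to 7214 in E294K against FH-Prdm14, from 3423 to 625 in Prdm14-/-, from 369 to 0 in FH-Mtgr1, from 1687 to 5058 in FH-Prdm14 and from 3084 to 0 in wt 2i (each of the last 4 against wt serum+LIF). In the limma fits with a count of 0, 3102 genes in FH-Mtgr1 and 1593 in wt 2i (1 of the 8) had an unadjusted p under 0.05. Voom gave 639 in FH-Mtgr1 and 3256 in wt 2i against wt serum+LIF. The replicate block gave 5387 (reported 3390) in Prdm14-/- and 7288 in E294K against FH-Prdm14, and with GC adjustment 6000 and 6665. The block was fitted to the compared conditions only, so it differs from the reported fit in more than the pairing. Without GC adjustment it changed the calls of Lifr in Mtgr1-/- against FH-Mtgr1, of Socs3 in Prdm14-/- against FH-Prdm14 and of Socs3 and Pim3 in E294K against FH-Prdm14, and no other call of the 8 genes. In E294K against FH-Prdm14, the fit of the compared conditions without pairing gave 7214 calls over all genes, against 7288 with the block. The part of pairing in these moves was not tested. The block with GC adjustment also gave a call to Lifr in E294K against FH-Prdm14 (-0.26, adjusted p = 0.0292).

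Leaving out 1 library at a time gave 1 to 2 of the 8 genes called in Mtgr1-/- against FH-Mtgr1, 1 in every case in E294K against FH-Prdm14, 3 to 4 in E294K against Prdm14-/-, 2 to 3 in Prdm14-/- against wt serum+LIF (lowest without G6) and 3 to 5 in Mtgr1-/- against Prdm14-/- (lowest without Prdm14-/- G6). Calls over all genes ran from 1521 to 3079 in Prdm14-/- and from 747 to 1032 in E294K against FH-Prdm14, from 1492 (without Prdm14-/- G6) to 3944 in E294K against Prdm14-/-, and from 2979 to 5306 in Mtgr1-/- against Prdm14-/-. They ran from 895 (without G6) to 3366 in Prdm14-/-, from 18 (without A3) to 184 in FH-Mtgr1 and from 297 to 379 in FH-Prdm14 against wt serum+LIF, and from 2524 to 4433 for the difference of the knockout effects. Fits that left 1 library in a condition assume that it varies like the others.

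Log2 differences that turned their sign were all uncalled, and each is given with its reported value in brackets. Leaving out 1 library, in Mtgr1-/- against FH-Mtgr1 Pim1 (-0.04) ran from -0.32 to 0.12 and Pim3 (0.0041) from -0.41 to 0.21. In Prdm14-/- against FH-Prdm14 Jak1 (0.05) ran from -0.12 to 0.22 and Pim1 (0.07) from -0.34 to 0.48. In E294K against FH-Prdm14 Stat3 (-0.03) ran from -0.065 to 0.0062. Against wt serum+LIF, Pim1 in Mtgr1-/- (-0.01) ran from -0.28 to 0.16, Jak1 in FH-Mtgr1 (0.02) from -0.085 to 0.10 and Pim1 there (0.04) from -0.023 to 0.086, and in wt 2i Il6st (-0.16) ran from -0.53 to 0.21 and Pim3 (0.02) from -0.48 to 0.52. In Mtgr1-/- against Prdm14-/- Lifr (0.27) ran from -0.095 to 0.64 and Jak1 (-0.00072) from -0.17 to 0.17. For the difference of the knockout effects Il6st (0.07) ran from -0.059 to 0.20, Pim1 (-0.12) from -0.52 to 0.29, Pim3 (-0.16) from -0.57 to 0.048 and Socs3 (0.14) from -0.14 to 0.28.

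GC adjustment, with or without the replicate block, gave -0.16 for Pim3 in Mtgr1-/- against FH-Mtgr1, -0.057 for Pim1 and -0.0026 for Pim3 in Prdm14-/- against FH-Prdm14, 0.11 for Stat3 and 0.16 for Socs3 in E294K against FH-Prdm14, and -0.062 for Il6st in the difference of the knockout effects. Against wt serum+LIF it gave -0.024 for Pim1 in FH-Mtgr1, -0.0079 for Stat3 and -0.31 for Socs3 in FH-Prdm14, and 0.029 for Il6st and -0.25 for Pim3 in wt 2i. Median-of-ratios scaling gave 0.030 for Stat3 in E294K against FH-Prdm14, 0.11 for Pim1 in Mtgr1-/- against wt serum+LIF and 0.051 for Jak1 in Mtgr1-/- against Prdm14-/-. Voom gave 0.0036 for that Jak1 value and -0.0031 for Pim3 in Mtgr1-/- against FH-Mtgr1.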

Other observations

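Values outside the comparisons above concern wt cells in 2i+LIF. The pair of 2i+LIF libraries disagreed on Pim3 (159.3 and 79.2 RPKM) and Il6st (22.8 and 13.5 RPKM), while they agreed more closely on Pim1 (129.0 and 133.2 RPKM), Pim2 (7.95 and 8.19 RPKM) and Stat3 (25.3 and 26.5 RPKM). The Pim3 log2 difference from wt serum+LIF was 0.02 with both, -0.48 without the first and 0.52 without the second. After GC adjustment the Pim3 values of the pair were 134.1 and 95.4 on the adjusted scale.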
